A study of Mus musculus with 8 samples.

Results

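The Notch receptors and the Deltex genes were followed here in splenic CD8+ T cells, the cytotoxic lineage of T lymphocytes. The set held 9 genes of the 48321 gene symbols in each count table: the receptors *Notch1* and *Notch2*, the Deltex genes *Dtx1*, *Dtx2*, *Dtx3* and *Dtx4*, the transcription factor gene *Rbpj*, the co-activator gene *Maml1* and the target gene *Hes1*. They were taken by symbol, and they were chosen because their levels had been compared over the same days and genotypes as below, so their values are a description: that one is called or not called says only on which side of the threshold of the fit across all genes it lay, and is no independent test. RNA was sequenced from 8 libraries of C57BL/6 spleen in 4 groups of 2: WT and KO cells at day 0, and WT and KO cells at day 5 of culture. The series gives the mice as *Satb1* F/F with *E8I-cre*, a transgene that drives Cre recombinase in mature CD8 lineage cells, and SATB1 is a nuclear protein that organises chromatin in T cells. The sample labels give only WT or KO and the day; the alleles of the WT mice, the age of the mice and the culture condition are not given in the sources used here. The labels do not say whether the 2 libraries of a group came from separate mice, so the spread between them may be technical.

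Notch receptors sit at the cell surface. When a ligand on a neighbouring cell binds, an ADAM protease and then gamma-secretase cut the receptor, and its freed intracellular part enters the nucleus, joins the DNA-binding protein RBPJ and a Mastermind co-activator such as MAML1, and switches on target genes, of which *Hes1* is the best known. Without the intracellular part, RBPJ is held with co-repressors. Deltex proteins are ubiquitin ligases that act on Notch and on its trafficking, and *Dtx1* is itself a Notch target in T-lineage cells.

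Total gene counts ranged from 4170126 to 11117971 per library, and the spread between replicates exceeded that of read sampling in all 4 groups. Levels are given as CPM, the reads of a gene as a share of all gene counts of the library, scaled between libraries by the trimmed mean of M-values (TMM). The 5 CD8 T cell markers (*Cd3e*, *Cd3g*, *Cd8a*, *Cd8b1* and *Trac*) summed to 10677 to 11354 CPM at day 0 and to 6347 to 7516 CPM at day 5, whereas *Cd4* was at most 0.961 CPM. The mRNA of *Satb1*, the targeted gene, was 97.4 and 91.2 CPM in WT and 144 and 124 CPM in KO-labelled libraries at day 0. At day 5 it was 96.2 and 116 CPM in WT and 56.4 and 62.1 CPM in KO-labelled libraries. At day 0 it therefore went against the label, with both KO-labelled libraries above both WT libraries, and gene counts cannot show whether the floxed part was missing from these transcripts.

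At day 0 the 9 genes spanned a wide range of levels. Per kb of exon, which corrects for transcript length, *Dtx1* was the most abundant in WT at 16.4 ± 0.302 CPM per kb (mean ± SD, n = 2), followed by *Notch1* at 4.97 ± 0.691, *Dtx4* at 2.63 ± 0.131, *Rbpj* at 2.42 ± 0.0241 and *Dtx3* at 1.89 ± 0.421 CPM per kb. *Maml1*, *Notch2* and *Dtx2* came next at 1.20 ± 0.260, 1.04 ± 0.206 and 0.833 ± 0.497 CPM per kb, and the libraries of *Maml1* overlapped those of *Notch2*, as did those of *Notch2* and *Dtx2*. The order in KO-labelled libraries at day 0 differed in that *Rbpj* stood above *Dtx4*, and there *Dtx4* and *Dtx3* overlapped. At day 5 the order was another one in both genotypes: *Rbpj* came first at 6.39 ± 1.65 CPM per kb in WT and 9.58 ± 0.519 CPM per kb in KO-labelled libraries, then *Dtx3*, *Notch1*, *Notch2* and *Maml1*, with *Dtx4* and *Dtx1* near the bottom. *Rbpj* and *Dtx3* overlapped in WT at day 5, as did *Notch2* and *Maml1*. The exon length of *Rbpj* counted here, 12750 bases, joins the exons of all its annotated transcripts, so its level per kb is approximate.

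**Figure D1:**
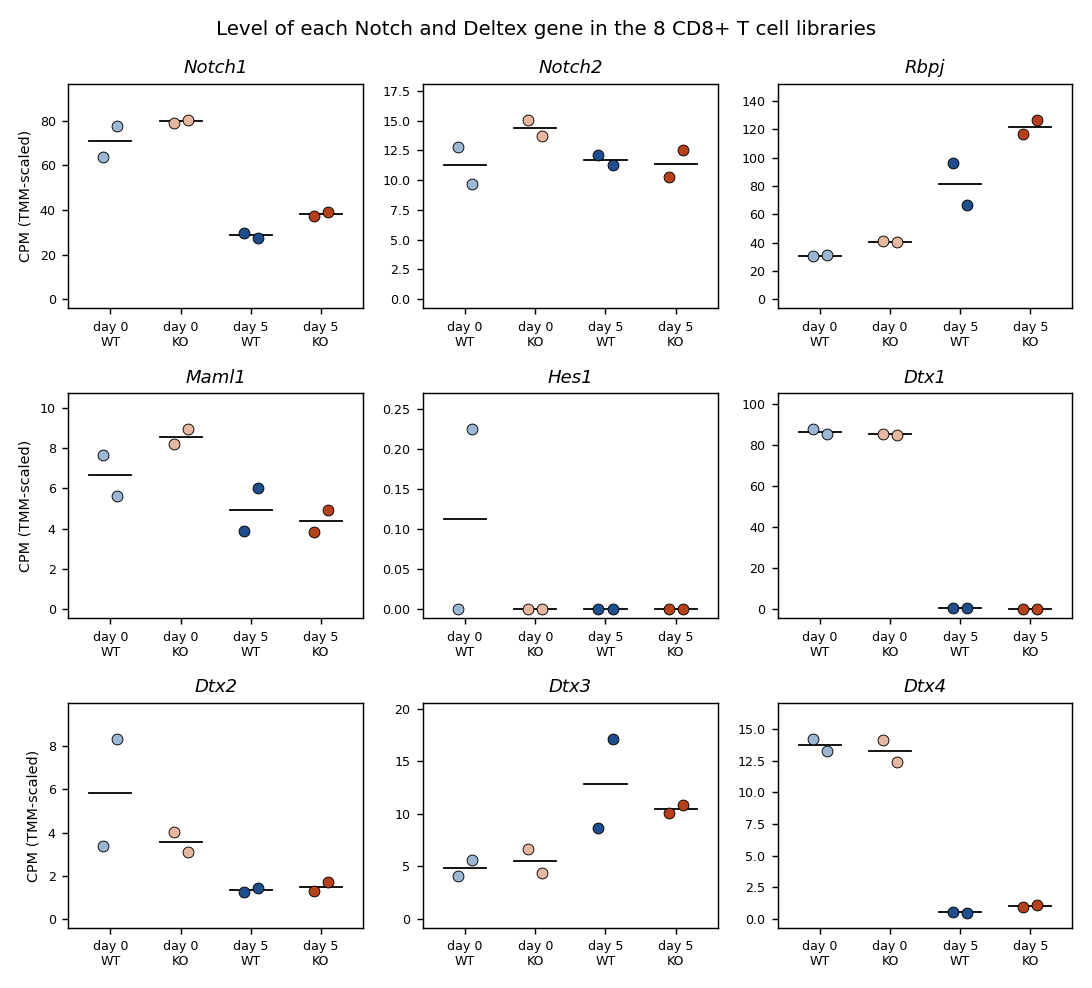
CPM (TMM-scaled, linear axis of its own for each gene) in the 8 libraries, with one point per library and a line at the mean of each group of 2. *Dtx1* lies between 84.9 and 87.8 CPM in the 4 day 0 libraries and at or below 0.481 CPM in the 4 day 5 libraries, while *Rbpj* is at 30.6 to 40.9 CPM at day 0 and 66.6 to 127 CPM at day 5.

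Between day 0 and day 5 the set moved in both directions. Of the 8 genes that passed the filter on low counts (*Hes1* did not), 6 passed a false discovery rate (FDR) of 0.05 in the edgeR fit in WT, 2 of them higher at day 5 (*Rbpj* and *Dtx3*) and 4 lower (*Notch1*, *Dtx1*, *Dtx2* and *Dtx4*). The same threshold was passed by 48.3% of all 12597 genes tested, with 24.7% higher and 23.6% lower. In the KO-labelled libraries, 5 of 8 passed, with *Rbpj* higher and *Notch1*, *Dtx1*, *Dtx4* and *Maml1* lower, against 50.2% of all genes tested, 26.2% higher and 24.0% lower. The median log2 fold change was -0.88 over the 8 genes and -0.04 over all genes tested in WT, and -1.01 and -0.05 in KO-labelled libraries. Since the genes were chosen on this contrast, nothing is read from these shares.

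*Notch1* (chr2:26457903-26516663 on the minus strand of GRCm38), the main Notch receptor of T cells, was 63.8 and 77.7 CPM in WT at day 0 and 29.6 and 27.6 CPM at day 5. The KO-labelled libraries gave 78.9 and 80.6 CPM at day 0 and 37.1 and 39.3 CPM at day 5. All 4 libraries of day 5 were below all 4 of day 0, with log2 fold changes of -1.30 (SE 0.16) in WT and -1.06 (SE 0.16) in KO-labelled libraries. With an offset for GC content and exon length in each library, the differences were -0.53 and -0.50 on the log2 scale. Exons of 0610009E02Rik and Gm13568 on the other strand share 9.76% of the exon bases of *Notch1*, and the strand setting of the counting is not given in the sources used here, so their reads cannot be told apart there.

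*Notch2* (chr3:98013527-98150361, plus strand), a second receptor known for its role in B cells and in CD8 effector cells, was 12.8 and 9.68 CPM in WT at day 0 and 12.1 and 11.3 CPM at day 5. It was 15.1 and 13.7 CPM in KO-labelled libraries at day 0 and 10.3 and 12.5 CPM at day 5. The WT groups overlapped, with a log2 fold change of 0.05 (SE 0.26) that was -0.09 when scaled by library totals and -0.12 without replicate 2 of WT at day 0. The groups labelled KO did not overlap, with a value of -0.35 (SE 0.25) that was not called. Per kb, *Notch1* made up between 79.0% and 85.9% of the transcripts of both receptors in the 4 libraries of day 0. At day 5 its share was 64.8% and 65.0% in WT and 73.2% and 70.5% in KO-labelled libraries, all below the day 0 libraries. These shares carry no correction for GC content, and the fall of *Notch1* was smaller with that offset. Exons of Gm42820 on the same strand share 5.02% of the exon bases of *Notch2*, so reads there cannot be told apart.

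*Dtx1* (chr5:120680202-120711927, minus strand) showed the widest range of the set. It was 87.8 and 85.5 CPM in WT and 85.7 and 84.9 CPM in KO-labelled libraries at day 0, from 380 to 1002 reads. At day 5 it was 0.352 and 0.481 CPM in WT, from 2 reads in each library, and 0 and 0.189 CPM in KO-labelled libraries, from 0 and 1 read. Its level was therefore 214 times as high at day 0 as at day 5 in WT (exact binomial 95% interval of the counts, 83.2 to 786) and the ratio was 918 in KO-labelled libraries (165 to 36295), where it rests on 1 read at day 5. The fitted log2 fold change was -7.67 in WT, or -7.01 with correction for GC content and exon length, and -9.55 in KO-labelled libraries, or -8.66 without replicate 1 and -12.02 without replicate 2 of KO at day 5, so the size of the KO ratio is not settled by these reads. The intervals allow for counting error alone, because PCR copies of a molecule could not be told apart.

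*Dtx4* (chr19:12466338-12501454, minus strand) followed *Dtx1* at a lower level. It was 14.2 and 13.3 CPM in WT and 14.1 and 12.4 CPM in KO-labelled libraries at day 0. At day 5 it was 0.528 and 0.481 CPM in WT, from 3 and 2 reads, and 0.918 and 1.13 CPM in KO-labelled libraries, from 5 and 6 reads. The day 0 level was 27.2 times that of day 5 in WT (counting interval 11.4 to 85.1), and the log2 fold change was -3.68 (SE 0.41) in KO-labelled libraries. *Dtx2* (chr5:135994800-136032872, plus strand) was 3.38 and 8.33 CPM in WT at day 0 and 1.23 and 1.44 CPM at day 5, and 4.02 and 3.10 CPM and then 1.28 and 1.70 CPM in KO-labelled libraries. The groups did not overlap in either genotype, with log2 fold changes of -2.11 (SE 0.58) and -1.27 (SE 0.56), of which the second was not called. The WT value rested on replicate 2 of day 0: without it the log2 fold change was -1.33 and was not called, and it was -1.96 and not called without replicate 1 of WT at day 5. The KO value was called at -1.45 with library totals and at -1.27 without replicate 1 of WT at day 0 or with the 4 KO-labelled libraries alone.

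*Dtx3* (chr10:127190378-127195728, minus strand), which encodes a shorter Deltex protein than the others, was the single one of the 4 with higher levels at day 5. It was 4.10 and 5.63 CPM in WT at day 0 and 8.62 and 17.1 CPM at day 5, and 6.67 and 4.37 CPM and then 10.1 and 10.8 CPM in KO-labelled libraries. All day 5 libraries were above all day 0 libraries, by 1.39 (SE 0.39) on the log2 scale in WT and by 0.87 (SE 0.36, not called) in KO-labelled libraries. Without replicate 2 of WT at day 5 the WT difference was 0.87, and without replicate 1 of WT at day 0 it was 1.17, and neither was called. The KO value was 1.25 and called without replicate 1 of KO at day 0, and it was also called without either WT library of day 5, at 0.90 and 0.88. With the 4 KO-labelled libraries alone it was 0.87 and called.

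The make-up of these 4 Deltex transcripts thus differed between the 2 time points. Per kb, *Dtx1* held between 73.3% and 78.1% of the sum of the 4 genes at day 0 and between 0% and 1.81% at day 5, and *Dtx3* held between 7.42% and 11.7% at day 0 and between 89.4% and 94.5% at day 5. The sum itself was 20.6 to 22.1 CPM per kb at day 0 and 3.69 to 7.02 CPM per kb at day 5. *Dtx3l*, a related gene that was not among the 4, was at 89.0 and 85.5 CPM in WT at day 0 and 80.2 and 76.7 CPM at day 5, and at 102 and 89.3 CPM and then 109 and 104 CPM in KO-labelled libraries, and was not called between days in either genotype (edgeR FDR 0.370 and 0.369). Its log2 fold changes were -0.16 in WT, which with correction for GC content and exon length became -0.39 and was called (FDR 0.0321), and 0.15 in KO-labelled libraries, which became -0.03 with that correction or with library totals. Fewer cells that express a gene and less RNA per cell cannot be told apart in these bulk libraries.

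**Figure D2:**
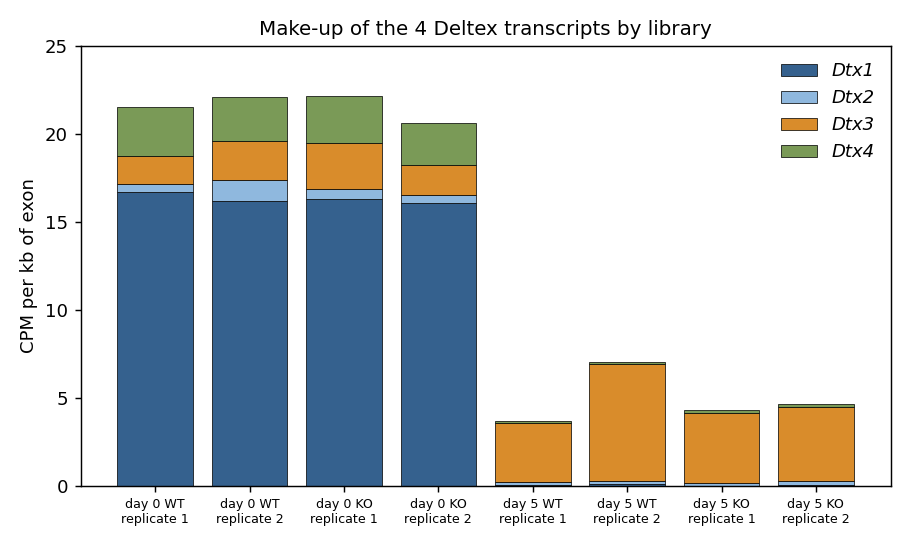
Stacked level of *Dtx1*, *Dtx2*, *Dtx3* and *Dtx4* in CPM per kb of exon (linear axis from 0), with one bar for each of the 8 libraries. *Dtx1* fills most of each day 0 bar (73.3% to 78.1%), and *Dtx3* fills most of each day 5 bar (89.4% to 94.5%), which are shorter (3.69 to 7.02 against 20.6 to 22.1 CPM per kb).

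*Rbpj* (chr5:53466152-53657362, plus strand), the DNA-binding protein of the pathway, was 30.6 and 31.1 CPM in WT at day 0 and 96.4 and 66.6 CPM at day 5. It was 40.9 and 40.5 CPM in KO-labelled libraries at day 0 and 117 and 127 CPM at day 5. The day 5 libraries were all above the day 0 libraries, by 1.40 (SE 0.18) on the log2 scale in WT and 1.58 (SE 0.17) in KO-labelled libraries. *Maml1* (chr11:50255634-50292311, minus strand), the co-activator, was 7.66 and 5.63 CPM in WT at day 0 and 3.87 and 6.01 CPM at day 5, which overlapped. In the KO-labelled libraries it was 8.21 and 8.93 CPM and then 3.85 and 4.91 CPM, which differed by -0.96 on the log2 scale (SE 0.34). That call was lost in each fit that left out 1 KO-labelled library, with values of -1.02 and -0.91 without replicates 1 and 2 of day 0 and -0.79 and -1.14 without replicates 1 and 2 of day 5, and with DESeq2 and with no filter on low counts. *Hes1* (chr16:30064384-30067796, plus strand) had 1 read in replicate 2 of WT at day 0 and none in the other 7 libraries, where a count of 0 allows up to 3 reads, or 0.257 to 0.721 CPM across the libraries.

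**Figure D3:**
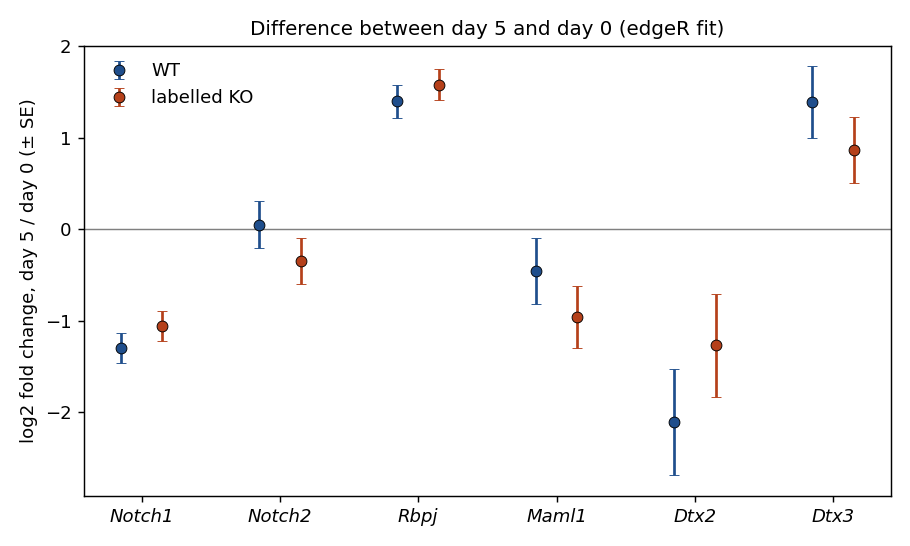
Log2 fold change of day 5 over day 0 from the edgeR fit (points) with its standard error (bars), in WT and in KO-labelled libraries. *Dtx1* and *Dtx4* are not drawn because their day 5 counts were near 0. *Notch1* lies below 0 (-1.30 and -1.06) and *Rbpj* above 0 (1.40 and 1.58) in both genotypes.

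The promoters of 3 of these genes are shown because they are the one with the widest range (*Dtx1*), the gene of the DNA-binding protein itself (*Rbpj*), and the one other gene with the letters searched for (*Dtx2*). Each holds 250 bases before and 50 after the transcript start, 5′ to 3′ on the strand of the gene, from RefSeq on GRCm38.p6, with the core letters of the RBPJ motif, TGGGAA or its reverse complement TTCCCA, in capitals. The windows are chr5:120711620-120711919 on the minus strand for *Dtx1*, and chr5:53590096-53590395 and chr5:135994550-135994849 on the plus strand for *Rbpj* and *Dtx2*.
Dtx1: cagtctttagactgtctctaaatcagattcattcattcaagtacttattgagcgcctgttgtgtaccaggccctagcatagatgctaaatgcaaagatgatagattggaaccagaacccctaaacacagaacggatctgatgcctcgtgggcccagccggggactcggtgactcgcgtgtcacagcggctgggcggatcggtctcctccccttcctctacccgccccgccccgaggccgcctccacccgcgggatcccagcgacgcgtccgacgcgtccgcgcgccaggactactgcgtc
Rbpj: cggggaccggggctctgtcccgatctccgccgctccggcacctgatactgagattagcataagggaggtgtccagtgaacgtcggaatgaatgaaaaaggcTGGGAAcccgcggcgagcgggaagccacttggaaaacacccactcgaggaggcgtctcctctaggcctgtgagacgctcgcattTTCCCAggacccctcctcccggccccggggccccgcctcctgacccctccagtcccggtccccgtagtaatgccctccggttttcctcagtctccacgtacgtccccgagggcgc
Dtx2: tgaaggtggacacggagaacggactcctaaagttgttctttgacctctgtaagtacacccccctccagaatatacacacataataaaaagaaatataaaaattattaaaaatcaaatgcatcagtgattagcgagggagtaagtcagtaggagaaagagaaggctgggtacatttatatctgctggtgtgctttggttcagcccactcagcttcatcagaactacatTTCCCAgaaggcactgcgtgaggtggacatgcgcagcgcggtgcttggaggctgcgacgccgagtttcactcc
Promoter windows were found for 6 of the 9 genes, and the core stood in those of 2 genes, *Rbpj* and *Dtx2*. *Rbpj* has 2 windows, which overlap, and the single match in the other is the same site as the second match of the one shown. In the window shown for *Rbpj* it begins 149 and 65 bases before the start, and in that of *Dtx2* 23 bases before it. Among all 32851 promoter windows of this length, 25.6% hold the core on either strand, so these matches are a description of the letters and not of binding.

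By genotype, none of the 8 genes passed the threshold at day 0 or at day 5 in edgeR, nor in DESeq2. The FDR threshold was passed by 1.80% of all genes tested at day 0 and 1.63% at day 5. At an unadjusted p under 0.05 there were 0 of the 8 at day 0, beside 13.8% of all genes tested, and 2 at day 5, beside 14.1%. Since the genes were chosen with the levels of both genotypes known, nothing is read from these shares or from those of the interaction below. *Notch1* was above WT in both KO-labelled libraries at each day, by 0.18 (SE 0.15) on the log2 scale at day 0 and 0.41 (SE 0.17) at day 5. *Rbpj* was likewise higher in both KO-labelled libraries, by 0.40 (SE 0.19) at day 0 and 0.58 (SE 0.17) at day 5, and the day 5 difference was 0.88 and called without replicate 1 of WT at day 5. *Notch2* and *Maml1* did not overlap between genotypes at day 0, each by 0.35 (SE 0.25 and 0.33), and overlapped at day 5. How many of all genes tested were apart between genotypes is not given here. Nothing is therefore read from which of these genes did not overlap. The libraries of *Dtx1* at day 0 overlapped, with a log2 fold change of -0.02 (SE 0.16), as did those of *Dtx4* with -0.05 (SE 0.26), *Dtx3* with 0.23 (SE 0.40) and *Dtx2* with -0.67 (SE 0.47), the last of which was 0.09 without replicate 2 of WT. At day 5 *Dtx3* differed by -0.28 (SE 0.36), or by 0.27 without replicate 2 of WT, and *Dtx2* by 0.17 (SE 0.66), and both overlapped. *Dtx1* and *Dtx4* had too few reads at day 5 for a comparison of genotypes, 2 and 2 in WT against 0 and 1 for *Dtx1* and 3 and 2 against 5 and 6 for *Dtx4*. The interaction of genotype and day was called for 0 of the 8 genes in edgeR and DESeq2, and for 0.159% of all genes tested. At an unadjusted p under 0.05 there were 0 of the 8, beside 12.4% of all genes tested. The interaction log2 fold changes with enough reads ran from -0.51 (SE 0.53) for *Dtx3* to 0.84 (SE 0.81) for *Dtx2*, with 0.24 (SE 0.23) for *Notch1* and 0.18 (SE 0.25) for *Rbpj*, and were 0.01 for *Dtx3* and -0.09 for *Rbpj* without replicate 2 of WT at day 5, and 0.07 for *Dtx2* without replicate 2 of WT at day 0.

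The rest of the pathway was taken from a list of 64 genes, of which 44 were tested. In WT 5 rose, 16 fell and 23 were not called between day 0 and day 5, which is 47.7% called beside 48.3% of all genes tested, and the median log2 fold change was -0.44 against -0.04 over all genes. In the KO-labelled libraries 6 rose, 17 fell and 21 were not called (52.3% beside 50.2%), with a median of -0.35 against -0.05. FDR values below are from edgeR's quasi-likelihood test with Benjamini-Hochberg adjustment over all genes tested.

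The ligands and the other receptors were at the limit of detection. None of the 7 ligand genes (*Dll1*, *Dll3*, *Dll4*, *Jag1*, *Jag2*, *Dlk1* and *Dlk2*) had more than 7 reads in any library, and none passed the filter. *Notch3* and *Notch4* also had at most 7 reads. The target genes *Hes5*, *Hey1*, *Hey2*, *Heyl*, *Nrarp* and *Ptcra* had at most 4 reads in any library, so these, like *Hes1*, gave no readable level in CD8+ T cells at either day.

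In WT 5 of 6 genes of receptor glycosylation and furin cleavage fell, beside 23.6% of all genes tested, and no test compared the group with other genes. They were the Fringe glycosyltransferases *Mfng*, from 96.5 and 122 CPM to 40.3 and 39.2 CPM (log2 fold change -1.46, SE 0.15, FDR 8.45e-06), and *Lfng*, from 51.5 and 49.1 to 21.8 and 17.3 CPM (-1.36, SE 0.19). The others were *Furin*, which makes the first cut of the receptor (-1.27, FDR 0.0156), and the O-glycosyltransferases *Pofut1* (-0.71, FDR 0.0292) and *Poglut1* (-0.70, FDR 0.00217). In the KO-labelled libraries 4 of 6 fell, beside 24.0% of all genes tested: *Furin* by 1.12, *Pofut1* by 1.02, *Mfng* by 0.96 and *Lfng* by 0.95 on the log2 scale (FDR 0.0245, 0.00351, 0.000186 and 0.000988). The calls of *Furin* and *Pofut1* changed with the library left out and with the processing: *Furin* had FDR 0.150 and 0.121 in WT without replicate 2 of day 0 and of day 5, and up to 0.126 in KO-labelled libraries, and *Pofut1* had FDR up to 0.161 in WT without replicate 1 of day 5 and 0.0539 in KO-labelled libraries without replicate 1 of day 5. Correcting for GC content and exon length also ended the call of *Furin* in both genotypes (FDR 0.131 and 0.0790) and that of *Pofut1* in WT (FDR 0.271). DESeq2 gave FDR 0.0518 for *Furin* in KO-labelled libraries and 0.112 for *Pofut1* in WT, whose FDR was 0.101 with no filter and 0.0594 with its 4 libraries alone.

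Of 8 tested genes of ADAM and gamma-secretase cleavage, 1 was called higher in WT and 2 in KO-labelled libraries, beside 24.7% and 26.2% of all genes tested, and 1 was called lower in each genotype, beside 23.6% and 24.0%. *Aph1b*, a gamma-secretase subunit, had no reads in WT at day 0 and 16 and 11 reads at day 5, at least 4.51-fold higher against a floor of 3 counts per library. In the KO-labelled libraries it had 1 read in each library at day 0 and 13 and 35 at day 5, a ratio of 38.4 (counting interval 10.1 to 326). It passed the filter on low counts through its day 5 libraries alone, so that its calls are a description and no FDR is given. In the KO-labelled libraries *Aph1a* rose by 1.44 and *Ncstn* fell by 0.35 (FDR 0.0426 and 0.0374), and both calls were lost in each fit that left out a KO-labelled library. Both were also lost with DESeq2 (FDR 0.0807 and 0.0723). The call of *Aph1a* was lost with library totals (FDR 0.0732) and with the GC content and exon length offset (FDR 0.124). That of *Ncstn* was lost with DESeq2 size factors within edgeR (FDR 0.0575) and with no filter (FDR 0.0762). Of 7 ubiquitin ligase and trafficking genes, 2 were called higher and 1 lower in each genotype, or 42.9% called beside 48.3% (WT) and 50.2% (KO) of all genes tested. *Nedd4* was 102 and 82.8 CPM in WT at day 0 and 149 and 164 CPM at day 5 (0.75, SE 0.14, FDR 0.000912), and rose by 1.19 (FDR 2.25e-05) in KO-labelled libraries. *Neurl1b* had 1 read in WT at day 0 and 63 at day 5, a ratio of 64.4 (counting interval 11.1 to 2582), and it too passed the filter through its day 5 libraries alone. The fitted log2 fold change in WT was 5.70, or 4.69 without replicate 1 and 8.29 without replicate 2 of WT at day 0. In KO-labelled libraries its 8 reads at day 0 were all in replicate 2, against 42 and 50 reads at day 5, and the fitted log2 fold change of 3.98 (SE 0.91) was 2.54 without replicate 1 and 8.70 without replicate 2 of KO at day 0, and was not called with DESeq2. *Numb*, an inhibitor of Notch, fell by 0.69 in WT (FDR 0.0376), a call kept in 9 of 17 alternatives: the FDR was 0.0913 with DESeq2, 0.0613 with no filter and up to 0.196 when single libraries were left out (the highest without replicate 1 of WT at day 5). It fell by 1.11 in KO-labelled libraries (FDR 0.00184).

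Among 7 nuclear co-activators, 2 fell in WT and 3 in KO-labelled libraries (28.6% and 42.9%, beside 23.6% and 24.0% of all genes tested that were called lower), and none was called higher. The acetyltransferase *Crebbp* went from 352 and 379 CPM to 153 and 158 CPM in WT (log2 fold change -1.23, SE 0.12, FDR 3.03e-06) and fell by 1.51 in KO-labelled libraries (FDR 4.25e-07), and the Mastermind gene *Maml2* went from 117 and 104 CPM to 58.9 and 51.9 CPM in WT (-0.99, SE 0.14, FDR 0.000101) and fell by 1.27 in KO-labelled libraries (FDR 1.11e-05). *Kat2b* fell by 0.86 in KO-labelled libraries (FDR 0.00405, but 0.0609 without replicate 1 of day 5). Among 13 co-repressors, 6 fell in WT and 7 in KO-labelled libraries (46.2% and 53.8%, beside 23.6% and 24.0% of all genes tested), and none was called higher. *Spen*, which holds RBPJ in its repressing form, fell by 1.43 and 1.65 on the log2 scale (FDR 0.00183 and 0.000473), although the WT value was -0.66 with FDR 0.103 when corrected for GC content and exon length. *Tle4* fell by 1.19 and 1.48 (FDR 0.000958 and 0.000174). *L3mbtl3* fell by 0.89 in WT (FDR 0.00960, but 0.103 without replicate 1 of day 5), and *Tle1* fell by 1.58 in KO-labelled libraries (FDR 0.0252, but 0.169 without replicate 1 of day 0 and 0.205 without replicate 1 of day 5).

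**Figure D4:**
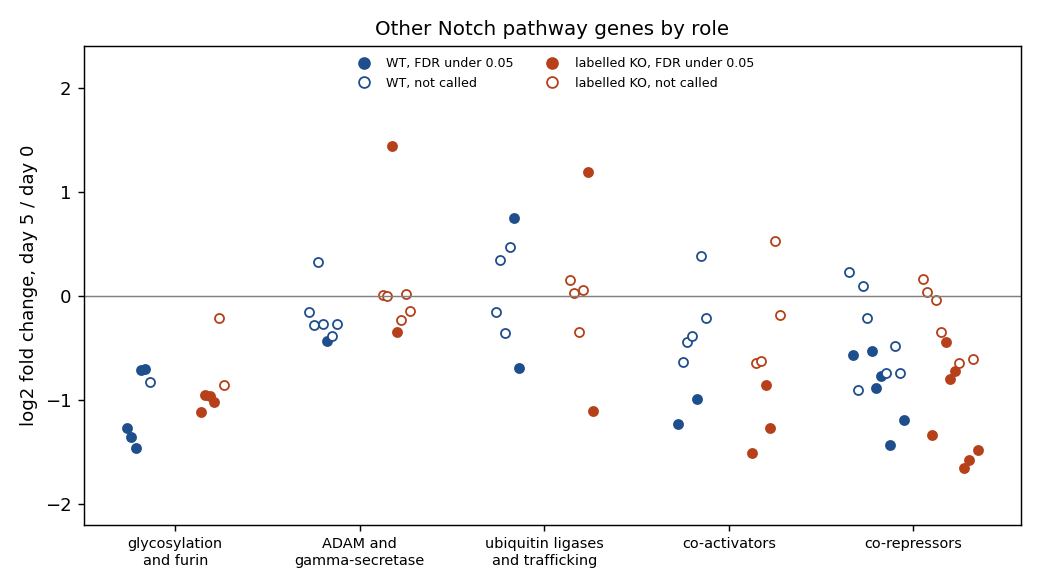
Log2 fold change of day 5 over day 0 for the tested pathway genes of 5 roles, each point a gene, in WT and in KO-labelled libraries, with filled points for FDR under 0.05 (edgeR). *Aph1b* and *Neurl1b* are not drawn because their day 0 counts were near 0. The called points of the glycosylation and furin, co-activator and co-repressor groups all lie below 0, and the filled points of the other 2 groups lie on both sides.

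Of the 3 tested target genes, 2 rose in each genotype, beside 24.7% (WT) and 26.2% (KO) of all genes tested, and 1 fell, beside 23.6% and 24.0%. *Il2ra*, the alpha chain of the IL-2 receptor and a marker of activated T cells, was 1.78 and 3.15 CPM in WT at day 0 and 2126 and 1753 CPM at day 5 (log2 fold change 9.65, SE 0.37, FDR 1.67e-10), and rose by 8.24 (SE 0.24, FDR 1.78e-10) in KO-labelled libraries, or by 8.94 without replicate 1 of KO at day 0. *Myc*, a growth regulator, was 143 and 162 CPM in WT at day 0 and 456 and 622 CPM at day 5 (1.82, SE 0.18, FDR 6.41e-06), and rose by 2.15 (FDR 1.34e-06) in KO-labelled libraries. *Gata3*, a T cell transcription factor, fell by 0.68 in WT (FDR 0.0168, but 0.144 without replicate 1 of day 0 and 0.132 without replicate 1 of day 5) and by 1.06 in KO-labelled libraries (FDR 0.000779). These genes are targets of many other pathways as well.

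Between genotypes none of the 44 pathway genes passed the threshold at day 0, at day 5 or in the interaction in edgeR or in DESeq2. At an unadjusted p under 0.05 there were 7 of the 44 at day 0, 7 at day 5 and 4 in the interaction, beside 13.8%, 14.1% and 12.4% of all genes tested. The 3 tested target genes were among the 7 at day 0, *Myc* with a log2 fold change of -0.56 (edgeR FDR 0.194), *Gata3* with 0.48 (edgeR FDR 0.287), and *Il2ra*, at 7.36 and 3.65 CPM in KO-labelled libraries at day 0 against 1.78 and 3.15 CPM in WT, a difference of 1.30 on the log2 scale (SE 0.40, edgeR FDR 0.133) that was 1.64 and called without replicate 2 of KO at day 0 (FDR 0.0244). With no filter on low counts *Myc* was also called, at -0.53 (FDR 0.0411). *Mfng* at day 5 was 56.9 and 57.6 CPM in KO-labelled libraries against 40.3 and 39.2 CPM in WT (0.53, SE 0.16, edgeR FDR 0.133), and *Lfng* was 32.9 and 25.3 against 21.8 and 17.3 CPM (0.56, SE 0.20, edgeR FDR 0.203).

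Genes with the profile most like that of *Dtx1*, by the root mean square distance between centred log2 CPM profiles over the 8 libraries, were *Fam101b* (0.53), *Xkrx* (0.76) and *Ccr9* (0.85), a chemokine receptor of recent thymic emigrants and gut-homing T cells. *Ccr9* was at a mean of 266 CPM in WT at day 0 and 0.384 CPM at day 5, and at 299 and 0.186 CPM in KO-labelled libraries. Those most like *Dtx4* were *Tagap* (0.21), *Ighd* (0.27) and *Fam65b* (0.29), and those most like *Dtx2* were *Rnasek* (0.21), *Zfp689* (0.22) and *Rab20* (0.24). At day 5 *Rnasek* had means of 0.416 CPM in WT and 0.372 CPM in KO-labelled libraries. Both lie under the level of 3 reads in a day 5 library, 0.528 to 0.721 CPM. With a prior count of 0.5 *Rnasek* was not among the 3 genes nearest to *Dtx2*. *Ighd*, the heavy chain of IgD on B cells, was at a mean of 35.8 CPM in WT at day 0 and 2.47 CPM at day 5. The 6 B cell markers summed to 122 to 166 CPM at day 0 and 67.2 to 84.2 CPM at day 5, nearly all of it *Cd79b* at 118 to 163 CPM and 66.5 to 83.1 CPM, while *Ms4a1* was at most 0.365 CPM and *Cd79a* at most 2.25 CPM. The 5 myeloid and dendritic markers summed to 10.9 to 18.9 CPM at day 0 and 4.40 to 6.04 CPM at day 5, and the part of either in the lower *Dtx2* and *Dtx4* levels was not tested.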

How the data were processed

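RNA was sequenced from 8 libraries of splenic CD8+ T cells, grouped by the genotype and day in their labels (KO stands for the libraries so labelled). The authors deposited 1 table of raw counts per library, with reads summed by gene symbol and neither normalized nor pooled. Per the submitters' processing notes, HISAT2 2.1.0, HTSeq 0.11.1 and the mm10 (GRCm38) genome were used. The annotation and strand setting are not given in the sources used here. Reads assigned to genes were 21.2% to 24.5% of the records, and the lines of the counting program that name no gene, the rest, were left out of library sizes and tests.

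The counts were fitted with the quasi-likelihood test of edgeR 4.0.16 (R 4.3.3), with all 8 libraries, a mean per group, TMM factors and a minimum count of 10, which left 12597 of 48321 symbols. The common biological coefficient of variation was 15%. Tests were two-sided, with Benjamini-Hochberg adjustment (FDR) over the genes tested. Comparisons were day 5 against day 0 in each genotype, KO against WT at each day, and their interaction. Ratios against groups near 0 carry exact binomial 95% intervals. CPM per kb used exon lengths of GENCODE M21, matched by symbol, and 96.7% of tested genes had a GC content. The fit was also run on simulated counts in which few genes, none of them with low counts, were changed. That run does not cover genes near 0 reads or a difference in about as many genes as between the days.

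The 9 genes and all lists were chosen with earlier results of these data known. Pathway genes were named by role, up to 3 with the largest called log2 fold change (all where 5 or fewer were called), and for the 3 genes of the set with the widest range over libraries, the 3 named genes with the nearest log2 CPM profile (prior count 2). Some listed genes that are included in the counts and sums are not reported here. *Mfng*, *Lfng*, *Il2ra*, *Myc* and *Gata3* between genotypes, and *Dtx3l*, were named after their values were seen. Same-numbered libraries were not shown to be pairs: their deviations correlated by 0.118 (WT, between days), 0.228 (KO, between days), 0.00438 (day 0, between genotypes) and -0.0165 (day 5).

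Alternatives were DESeq2 size factors within edgeR, library totals, a GC content and exon length offset (loess, span 0.3), no filter, at least 5 CPM in 2 libraries, the 4 libraries of a comparison alone, a block for the replicate number, DESeq2 1.42.0, the edgeR 4 form of the test, leaving out each library, and a prior count of 0.5 for the profiles.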

Additional observations from a re-analysis of the deposited data

Results flagged for a closer look

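For 3 genes both KO-labelled libraries lay on one side of both WT libraries at day 0 and on the other side at day 5. The share of all genes tested that switched sides in this way is not given here, so nothing is read from the number. For *Satb1* the log2 fold changes were 0.51 at day 0 and -0.84 at day 5, with an interaction of -1.34 (SE 0.21, edgeR FDR 0.0269). That call was lost in 6 of the 8 fits that left out a library (FDR 0.156 and 0.230 without replicates 1 and 2 of WT at day 0, 0.0501 without replicate 1 of KO at day 0, 0.0556 without replicate 2 of WT at day 5, and 0.177 and 0.123 without replicates 1 and 2 of KO at day 5) and after GC content and exon length correction (FDR 0.0653), with log2 values from -1.49 to -1.18 over all alternatives. *Poglut1*, which puts O-glucose on Notch receptors, was lower at day 0 (-0.09) and higher at day 5 (0.39), but its interaction of 0.48 (SE 0.21) was not called (edgeR FDR 0.376). *Maml2* stood above WT by 0.13 at day 0 and at -0.15 at day 5, and its interaction of -0.28 (SE 0.20) was not called either (edgeR FDR 0.622).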

How the results depend on the processing

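With 2 libraries per group, single libraries decided many calls. Over 17 alternatives the log2 fold change of day 5 over day 0 ranged from -1.44 to -0.53 (WT) and -1.25 to -0.50 (KO) for *Notch1* and from 1.13 to 1.68 and 1.40 to 1.65 for *Rbpj*, a description, since these genes were chosen on this contrast. Between days, 21 other pathway genes were called in WT and 23 in KO. With library totals these numbers were 28 and 28, beside 6228 and 6691 of all genes. With DESeq2 they were 19 and 17, beside 5387 and 5547 of all genes. The number of other pathway genes called in KO went from 23 to between 15 and 24 when libraries were left out, the lowest without replicate 1 of KO at day 5. For KO against WT at day 0 that number went from 0 to 2 with no filter (*Il2ra* and *Myc*) and to between 0 and 1 with a library left out (*Il2ra*, without replicate 2 of KO at day 0), and that of all genes from 227 to 434 and to between 38 and 276 (38 without replicate 1 and 49 without replicate 2 of WT at day 0). At day 5 the number of the 8 genes called went from 0 to between 0 and 1, and that of all genes from 205 to 112 after correction for GC content and exon length, 418 with no filter, 350 with DESeq2 and 32 to 249 with a library left out (32 without replicate 2 of KO at day 5). For the interaction, pathway genes went from 0 to 1 with no filter (*Il2ra*), and all genes from 20 to 13 with the offset, 154 with no filter, 144 with DESeq2 and 0 to 41 with a library left out (0 without replicate 1 of WT at day 0). The cause of these moves was not tested. With library totals the median log2 fold change over all genes between days was -0.17 in WT and -0.23 in KO, against -0.04 and -0.05, and more genes were then called lower than higher: 2668 higher and 3560 lower in WT (2548 and 3597 with the offset), against 3112 and 2969, and 2755 and 3936 in KO (2754 and 3844 with the offset), against 3296 and 3029. When a replicate block was added, 5999, 6291, 216, 215 and 29 genes were called in the 5 comparisons, against 6081, 6325, 227, 205 and 20, and 0 of the 8 genes were called in any comparison of genotypes. With a prior count of 0.5, 5 of the 9 genes nearest to *Dtx1*, *Dtx4* and *Dtx2* were shared. Depth limits *Hes1*, the ligands and the Deltex genes at day 5, which rest on 0 to 6 reads for *Dtx1* and *Dtx4*.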
